A study of Mus musculus with 16 samples.

Results

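The interferon response genes described here are a list of 47 genes of that pathway: the receptor chains for type I and type II interferon, the transcription factors below them, the RNA sensors, and the antiviral and immune effector genes that interferon switches on. A gene counted as present when it held at least 10 reads in at least 4 of the 16 libraries, whatever the group. By that rule 45 of the 47 were present, among 14236 of the 52997 gene rows that met it, and all 45 were among the 13949 genes tested. Oas3, an oligoadenylate synthetase, held 0 to 10 reads per library and Ifitm1, a membrane restriction factor, held 1 to 10, so both were under the rule and were not tested.

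The RNA came from mesenchymal stromal cells (mSC), the fibroblast-like connective tissue cells of skeletal muscle, taken from the hindlimbs of 8-week-old C57BL/6 mice. Mice were given either CGRP (calcitonin gene-related peptide, a neuropeptide of sensory nerves) or phosphate-buffered saline (PBS) into the peritoneal cavity, and cells were collected after 4 h or 8 h. The 4 groups were thus PBS at 4 h, CGRP at 4 h, PBS at 8 h and CGRP at 8 h, with 4 biological replicates in each, and strain, age, tissue and sorting were the same in all. Each library was made from 1000 cells sorted 2 times. The labels do not give the markers used in the sort, the dose of CGRP, the collection days, or whether a replicate was 1 mouse or a pool, so p-values measure the spread between these samples.

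Interferons are secreted proteins, and cells release those of type I on sensing viral or bacterial nucleic acid. Type I interferons bind the receptor chains IFNAR1 and IFNAR2, and interferon-gamma, the type II interferon, binds IFNGR1 and IFNGR2. Receptor-bound JAK kinases then activate STAT proteins, which, alone or with IRF9, bind the ISRE (interferon-stimulated response element) or the GAS (gamma-activated site) in the promoters of their target genes. Most resting cells keep a low, tonic level of these target genes, and stromal cells respond to both interferon types.

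The promoter sequences were compared first, since the ISRE is the element through which type I interferon acts on its target genes. Its letters were not used to choose the list. The genes were chosen as those of the interferon response, however, so a raised share was favoured in advance and is a description. RefSeq gave the 250 bases before the start site, on the GRCm38.p6 build, for 38 of the 47 genes. The core letters GAAANNGAAA were read on either strand and counted wherever they stood, including where 2 copies overlapped. They were in 16 of these 38 genes (42.1%) and in 319 of 9989 tested genes with a sequence (3.19%). A gene with several start sites counted when any of its windows held the core. Counted by single promoters, the core was in 978 of all 32851 (2.98%). The GAS core TTCNNNGAA, read in the same way, was in 11 of 38 (28.9%), in 702 of the tested genes (7.03%) and in 2306 of all promoters (7.02%). A match describes these letters in this window and not a bound site. The 6 promoters below belong to genes that were called at 4 h after CGRP and that had an entry in the table, and the capitals mark the ISRE core on either strand. Each runs 5′ to 3′ on the gene's own strand, up to the base before the start site.
Ifit3, chr19:34583279-34583528, plus strand: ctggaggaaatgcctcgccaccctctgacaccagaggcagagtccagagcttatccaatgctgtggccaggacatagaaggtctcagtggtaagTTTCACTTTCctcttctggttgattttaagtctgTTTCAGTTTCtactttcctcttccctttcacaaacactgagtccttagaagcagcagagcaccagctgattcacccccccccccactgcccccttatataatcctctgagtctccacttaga
Bst2, chr8:71537473-71537722, minus strand: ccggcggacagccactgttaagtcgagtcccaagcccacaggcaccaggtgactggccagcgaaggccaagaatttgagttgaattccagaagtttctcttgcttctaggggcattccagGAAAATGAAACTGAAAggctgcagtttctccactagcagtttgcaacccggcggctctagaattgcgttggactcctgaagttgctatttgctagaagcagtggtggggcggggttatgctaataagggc
Ifitm2, chr7:140955962-140956211, minus strand: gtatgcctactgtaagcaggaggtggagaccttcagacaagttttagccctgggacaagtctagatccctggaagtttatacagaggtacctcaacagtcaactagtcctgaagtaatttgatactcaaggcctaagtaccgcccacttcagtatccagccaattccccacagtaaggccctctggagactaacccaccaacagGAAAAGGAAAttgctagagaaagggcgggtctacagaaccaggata
Igtp, chr11:58199306-58199555, plus strand: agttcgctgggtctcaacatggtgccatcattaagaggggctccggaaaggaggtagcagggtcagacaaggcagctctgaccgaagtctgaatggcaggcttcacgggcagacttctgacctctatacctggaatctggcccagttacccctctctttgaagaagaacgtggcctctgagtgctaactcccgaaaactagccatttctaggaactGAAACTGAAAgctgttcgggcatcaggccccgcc
Ifngr1, chr10:19591699-19591948, plus strand: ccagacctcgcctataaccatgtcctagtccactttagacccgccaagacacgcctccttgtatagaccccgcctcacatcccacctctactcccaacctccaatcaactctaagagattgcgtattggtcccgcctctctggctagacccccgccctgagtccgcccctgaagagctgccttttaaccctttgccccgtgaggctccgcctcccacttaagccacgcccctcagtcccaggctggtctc
Xaf1, chr11:72301379-72301628, plus strand: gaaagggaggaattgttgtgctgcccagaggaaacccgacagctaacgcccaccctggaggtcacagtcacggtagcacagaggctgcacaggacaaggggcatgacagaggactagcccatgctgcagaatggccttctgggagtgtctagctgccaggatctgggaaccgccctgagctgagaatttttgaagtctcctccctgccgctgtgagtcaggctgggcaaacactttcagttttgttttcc

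The Ifit3 promoter held 2 cores, whose first bases lay 156 and 122 bases before the start. Bst2 also held 2, at 130 and 124 bases, which overlapped by 4 letters, and a GAS core at 136 bases. The single core of Ifitm2 lay 46 bases before the start and that of Igtp 34 bases, with a GAS core of Igtp at 45. The windows of Ifngr1 and Xaf1 held neither core. Parp14, the remaining gene called at 4 h, had no entry.

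The libraries held 6373713 to 10011920 counts, and values below are CPM (counts per 1000000 counts) scaled by TMM. The library kit does not mark the strand, so a gene and an overlapping or antisense gene cannot be told apart. Genes with a read numbered 21138 to 22341 in 12 libraries and more in 4. Those were PBS 4 h replicate 4 (25579 genes), CGRP 4 h replicate 3 (24376), and replicates 4 (25227) and 1 (23294) of PBS at 8 h. All 8 mesenchymal markers had reads in every group, and their summed level was 160451 to 183822 CPM after PBS and 143661 to 151315 CPM after CGRP at 4 h. Myeloid markers (11 genes) summed to 4.78 to 9.76 CPM over all libraries, with S100a9 at 0 after CGRP at 4 h, and Fcgr1, Cd163 and S100a9 at 0 after CGRP at 8 h. Lymphocyte markers (9 genes) summed to 0 to 2.12 CPM, with Gzma at 0 in all 4 groups. Dendritic cell markers (6 genes, the plasmacytoid type included) summed to more than either of these lists in every group. Siglech was at 0 after PBS at 4 h and Flt3 at 0 after CGRP at 8 h. The lists hold different genes, so their sums do not compare numbers of cells. The mean dendritic sum was 22.8 CPM after PBS and 18.6 CPM after CGRP at 4 h, and 26.3 and 21.3 CPM at 8 h. The ranges of PBS and CGRP overlapped at both times. Pericyte and smooth muscle markers, all 6 of which had reads, summed to 67.3 to 123 CPM after PBS and 29.8 to 63.4 CPM after CGRP at 4 h, and these 2 ranges did not overlap. At 8 h 3 lists lay wholly lower after CGRP: mesenchymal (160031 to 173068 CPM after PBS, 137312 to 156084 after CGRP), myogenic (166 to 247 and 131 to 155) and endothelial (107 to 129 and 80.7 to 105). Between the times after CGRP, the pericyte sum lay wholly higher at 8 h (94.7 to 129 CPM). Erythroid markers (5 genes) summed to 44.2, 47.5 and 44.1 CPM in PBS 4 h replicate 4, CGRP 4 h replicate 3 and CGRP 8 h replicate 4, and to 0.967 to 3.03 CPM in the other 13 libraries. The part of these markers in the results below was not tested, and in bulk RNA fewer cells of a type and less RNA per cell cannot be told apart.

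CGRP 4 h replicate 3 stood apart from the other 3 libraries of its group in the interferon genes. It was the highest of the 4 libraries for 31 of the 45 genes (68.9%), against 25.9% of all tested genes. Relative to the mean of PBS at 4 h, the median of the 45 genes was 0.11 (log2) in replicate 3 and -0.38, -0.33 and -0.32 in replicates 1, 2 and 4. It lay more than 1 log2 unit above the mean of the other 3 for 12 of the 45 genes, against 5.0% of all tested genes. The median of the 45 genes was 0.37 above the other 3, against 0.01 for all tested genes. Viperin (Rsad2), an enzyme that blocks viral replication, was at 22.5 CPM in replicate 3 and at 0.101, 4.10 and 2.12 CPM in the others. Mx1, a gene of the dynamin-like GTPase family, was at 7.26 CPM in replicate 3 and at 0.202, 1.21 and 0.265 CPM in the others. Ifi44, another interferon-stimulated gene, had 40 reads in replicate 3 and 0 in each of the other 3, while the PBS 4 h libraries had 10, 18, 7 and 19. Not every member was high there: Ifngr1 and Isg20 were 0.25 and 0.27 log2 below the mean of the other 3. The myeloid marker sum was 8.27 CPM in replicate 3 and 5.77, 5.55 and 6.50 CPM in replicates 1, 2 and 4, within the range of PBS at 4 h (4.97 to 9.76). The dendritic marker sum was 20.9 CPM in replicate 3, the highest of its group but also within the range of PBS at 4 h. The erythroid marker sum was 47.5 CPM in replicate 3 and 1.11, 3.01 and 1.06 CPM in the others. The other 2 libraries with a high erythroid sum were PBS 4 h replicate 4 and CGRP 8 h replicate 4. Mx1 was at 5.19 and 4.88 CPM there, the highest of their groups. Of the 45 genes, PBS 4 h replicate 4 was the highest of its group for 5 (11.1%, against 27.0% of all tested genes). It was the lowest for 18, against 26.3% of all tested genes. CGRP 8 h replicate 4 was the highest for 15 (33.3%, against 24.3%) and the lowest for 8, against 26.4% of all tested genes. The part of these markers in the result was not tested. Results at 4 h are therefore given with and without this library. It was singled out for its height in these same genes, so lower values without it are favoured in advance. Genes that pass only without it are a description and no separate evidence.

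PBS 4 h replicate 2 also stood above its group in these genes. It was the highest of the 4 for 23 of the 45 (51.1%, against 24.3% of all genes), and the median of the 45 genes was 0.18 above the other 3, against 0.01 for all tested genes. It enters both the CGRP comparison at 4 h and the comparison of times after PBS. Without it, 4 of the 45 fell after CGRP at 4 h (Ifngr1, Ifit3, Ifitm2 and Igtp), with a median of -0.16. The calls of Bst2, Parp14 and Xaf1 were lost, and none was called between the times after PBS. The share of all genes called in that fit is not given here, so these counts do not measure the members alone.

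**Figure D1:**
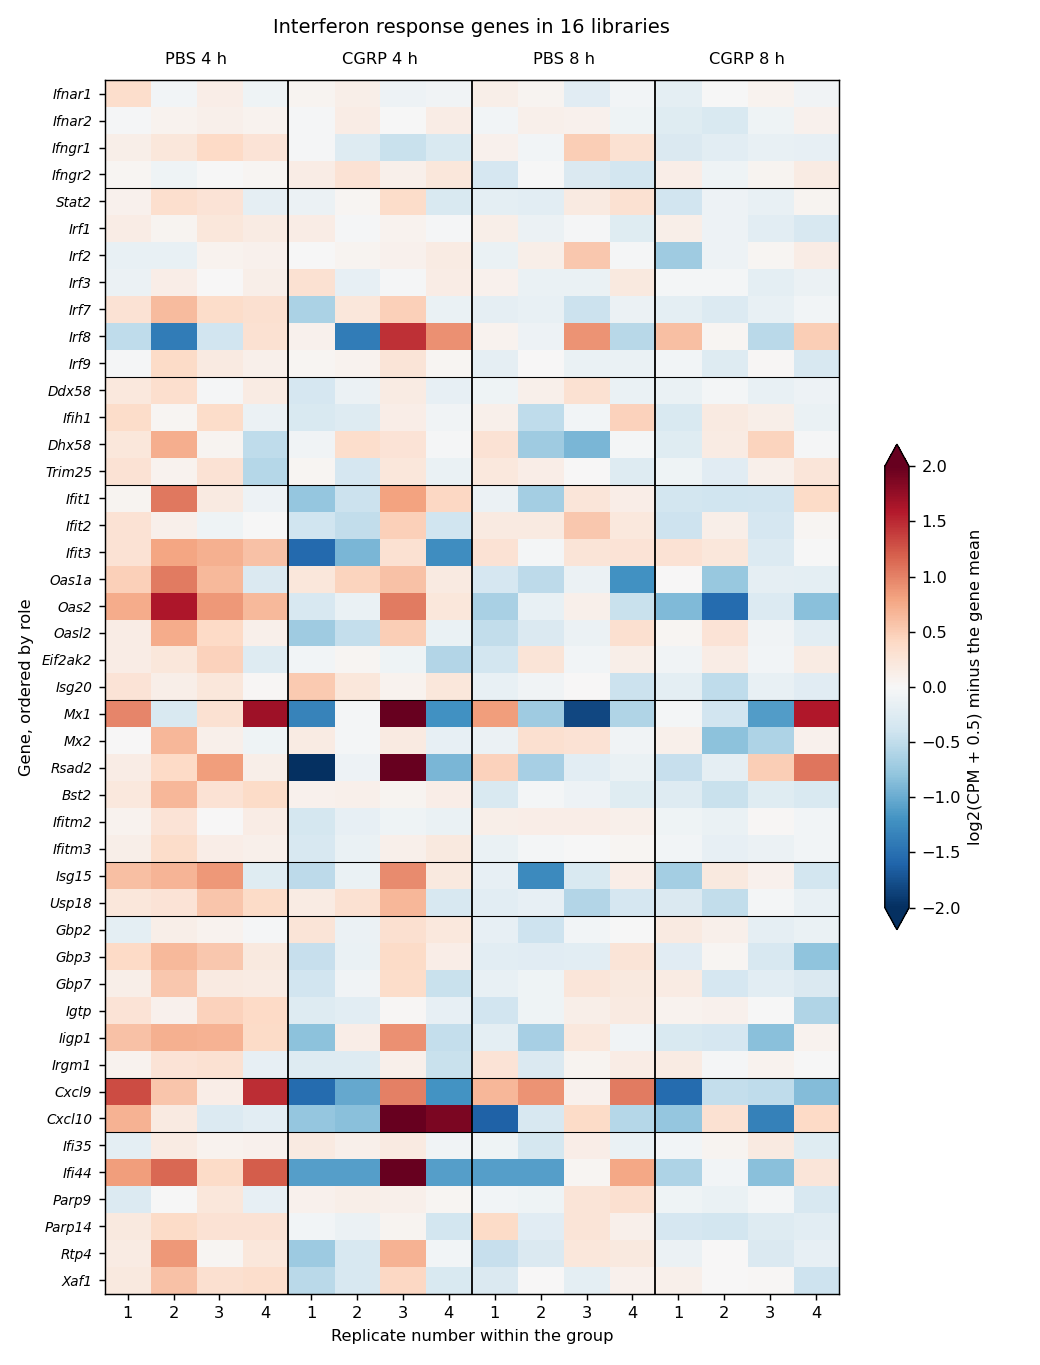
Level of each of the 45 genes (rows, ordered by role) in each of the 16 libraries (columns, by group and replicate), as log2(CPM + 0.5) minus the mean of that gene over all libraries, with the colour scale ending at -2.0 and 2.0. CGRP 4 h replicate 3 is the highest library of its group in 31 of the 45 genes, with the deepest reds in Rsad2, Mx1, Cxcl10 and Ifi44.

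Levels of the genes were set on a per-length scale, CPM per kilobase of exon, averaged over the 16 libraries. Only 3 of the 45 exceeded 100: Ifitm3 at 1435, Ifitm2 at 517 and Ifngr1 at 310.0. Of the rest 17 lay between 10 and 100, 20 between 1 and 10, and 5 under 1, namely Cxcl10, Cxcl9, Mx1, Ifi44 and Irf8. The top of the order was thus held by 2 small membrane proteins that hinder the entry of viruses and by the ligand-binding chain of the interferon-gamma receptor. At least 10 reads were present in all 16 libraries for 37 genes. Of the 8 others, Ifi44 and Irf8, an IRF factor of the myeloid lineage, reached 10 reads in 5 libraries each, and Cxcl10 in 7. The spread between replicates had a median coefficient of variation of 14.2% among the members and 16.5% among all tested genes after PBS at 4 h. The values were 16.7% and 16.7% after CGRP at 4 h, 16.8% and 16% after PBS at 8 h, and 14.4% and 16.5% after CGRP at 8 h.

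The first comparison asked what CGRP did to these genes at 4 h. In all 7 of the 45 fell and none rose at an adjusted p under 0.05 (edgeR), which is 15.6% of the members. Among all 13949 tested genes 16.2% were called, 8.39% lower and 7.84% higher. The share of members called lay near that background, and the members called were on the lower side. Log2 fold changes lay below 0 for 34 of 45 (75.6%, against 50.2% of all genes), with a median of -0.25 (against -0.002) and a range of -1.66 to 1.80. At an unadjusted p under 0.05 there were 17, of which 16 were lower. The share of all genes at that cut is not given here, so this count is not read as an excess. The 4 CGRP libraries lay below the 4 PBS libraries with no overlap for 5 genes (11.1%, against 9.91% of all genes), and above them for 1, Ifngr2 (2.22%, against 8.95%).

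The chains of the interferon-gamma receptor lay on opposite sides. Ifngr1, the chain that binds interferon-gamma (10:19591949-19610229, plus strand), was at 945, 1009.7, 1139.7 and 1043 CPM after PBS at 4 h and at 849.7, 721, 636 and 705 CPM after CGRP. The groups did not overlap at 4 h. At 8 h it was at 917, 838, 1225 and 1072 CPM after PBS and at 708, 748, 785 and 776 CPM after CGRP, again without overlap. Ifngr1 fell at both times, by 0.51 ± 0.10 (log2, SE; adjusted p = 0.00159) at 4 h and by 0.43 ± 0.10 (adjusted p = 0.0118) at 8 h. The exact permutation test gave p = 0.0286 at each time, two-sided, the smallest that 4 against 4 libraries allow. The 4 h call held when any 1 library was left out, with adjusted p between 0.00083 and 0.00823. The 8 h call was lost without PBS 8 h replicate 3, the highest PBS library, where the log2 change was -0.31 and adjusted p = 0.0654.

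Ifngr2, the second chain of that receptor, through which the signal is passed to JAK2 (16:91547072-91565623, plus strand), lay on the higher side. It was at 129, 119, 125 and 129 CPM after PBS at 4 h and at 139.8, 154, 135 and 148 CPM after CGRP. Every CGRP library was above every PBS library, with a log2 difference of 0.20 ± 0.09 that did not pass the adjusted test (adjusted p = 0.125). At 8 h the PBS libraries were at 100.1, 125, 103 and 97.2 CPM and the CGRP libraries at 139, 119, 131 and 141 CPM, where PBS replicate 2 stood above CGRP replicate 2. It rose at 8 h by 0.32 ± 0.09 (adjusted p = 0.0233, exact permutation p = 0.0571). That call was lost when any of CGRP 8 h replicates 1 or 4 or PBS 8 h replicates 1, 3 or 4 was left out, with adjusted p up to 0.0789.

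The chains of the type I receptor gave no call. Ifnar1 (16:91485238-91507441, plus strand) was at 139.9, 106, 120.3 and 104 CPM after PBS and 114, 119, 102 and 105 CPM after CGRP at 4 h. At 8 h the values were 119, 114, 93.7 and 106 CPM after PBS and 95.7, 109, 115 and 105 CPM after CGRP. The log2 differences were -0.09 ± 0.10 (adjusted p = 0.608) at 4 h and -0.03 ± 0.10 (adjusted p = 0.909) at 8 h, and the groups overlapped at both times. Ifnar2 (16:91372783-91405589, plus strand) was at 111, 118, 121 and 118 CPM after PBS and 111, 125, 112 and 124 CPM after CGRP at 4 h. At 8 h it was at 108, 120.4, 119.6 and 106 CPM after PBS and 95.0, 90.4, 106 and 119 CPM after CGRP, with overlap. Its log2 differences were 0.01 ± 0.09 (adjusted p = 0.963) and -0.14 ± 0.09 (adjusted p = 0.367).

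**Figure D2:**
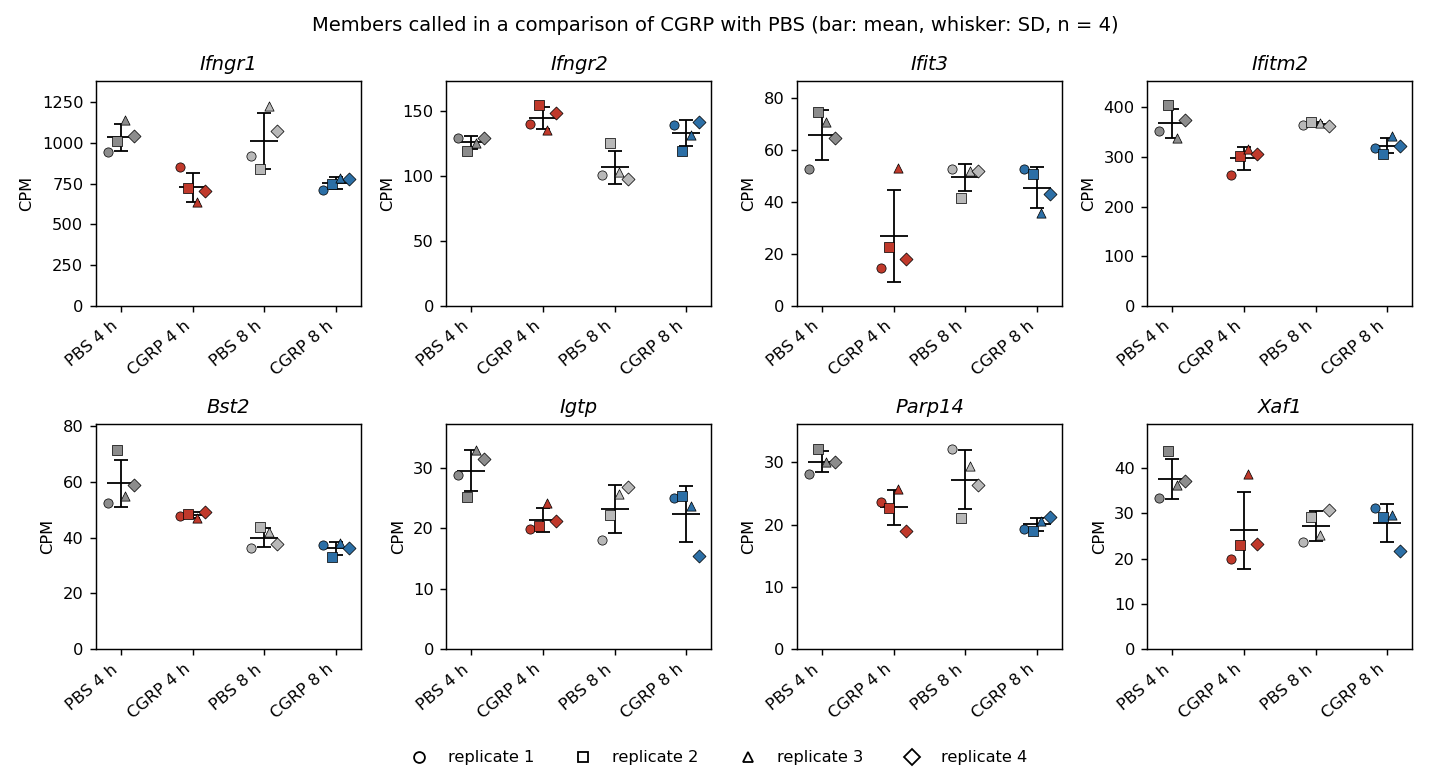
CPM of the 8 genes called in a comparison of CGRP with PBS, by group, with 1 marker per library (its shape gives the replicate), a bar at the mean and whiskers for the SD of 4 libraries. Ifngr1 is lower after CGRP at both times without overlap, and in Ifit3 and Xaf1 the CGRP 4 h marker that stands with the PBS markers is replicate 3.

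None of the 7 transcription factors was called at either time. At 4 h their log2 differences ran from -0.37 to 1.48 with 4 below 0, and at 8 h from -0.28 to 0.06 with 5 below 0. The value of 1.48 belonged to Irf8, which had 0 to 3.13 CPM per library. Irf7, the factor that amplifies type I interferon production, was at 32.2, 40.8, 33.8 and 32.8 CPM after PBS and at 16.7, 30.9, 36.8 and 24.0 CPM after CGRP at 4 h. Replicate 3 was the 1 CGRP library inside the PBS range. The log2 difference was -0.37 (adjusted p = 0.146) with all libraries and -0.54 ± 0.17 (adjusted p = 0.0312) without that replicate. Stat2 and Irf9, the partners of the complex that binds the ISRE, differed by -0.12 (adjusted p = 0.648) and -0.06 (adjusted p = 0.751) at 4 h. Irf1, the early interferon-gamma target, differed by -0.10 (adjusted p = 0.53), and Irf3, the factor activated by nucleic acid sensors, by 0.04 (adjusted p = 0.865). Irf2, which can oppose Irf1 on the same sites, differed by 0.11 (adjusted p = 0.716) at 4 h and by -0.28 (adjusted p = 0.338) at 8 h.

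The 4 genes of RNA sensing were below 0 at 4 h and none was called, with differences of -0.04 to -0.30. Ddx58, which encodes the sensor RIG-I, was at 54.1, 59.2, 45.9 and 52.3 CPM after PBS and at 36.9, 42.9, 52.1 and 41.4 CPM after CGRP. Its log2 difference was -0.29 (adjusted p = 0.101), and -0.38 ± 0.12 (adjusted p = 0.0384) without CGRP 4 h replicate 3. Ifih1, which encodes MDA5, differed by -0.30 (adjusted p = 0.262) and the ubiquitin ligase gene Trim25 by -0.09 (adjusted p = 0.806). Dhx58, which encodes the regulator LGP2, differed by -0.04 (adjusted p = 0.939) at 4 h and by 0.37 (adjusted p = 0.439) at 8 h, where it had the highest value of the 4.

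Among the 8 tested effectors that act on RNA or translation, 1 fell at 4 h and none was called at 8 h. Ifit3, a member of the IFIT family that recognises foreign RNA ends (19:34583531-34588731, plus strand), was at 52.7, 74.9, 70.9 and 64.6 CPM after PBS and at 14.4, 22.7, 53.1 and 17.9 CPM after CGRP. Replicates 1, 2 and 4 lay well below every PBS library, and replicate 3 lay just above the lowest of them. It fell by 1.29 ± 0.31 (adjusted p = 0.0124, exact permutation p = 0.0571), and without replicate 3 by 1.83 ± 0.17 (adjusted p = 4.38e-07). At 8 h Ifit3 was at 52.6, 41.7, 51.8 and 52.1 CPM after PBS and at 52.8, 50.7, 35.6 and 43.0 CPM after CGRP, with a log2 difference of -0.12 (adjusted p = 0.873). The difference between the times was 1.17 ± 0.44 and was not called (adjusted p = 0.224). Reads of 25 bases cannot separate it fully from its neighbour Ifit3b, with which 66.1% of its 25-base words are shared, and Ifit3b gave -1.04 (adjusted p = 0.0463).

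The other effectors gave no call at 4 h with all libraries. Oas2, an oligoadenylate synthetase that activates RNA decay (5:120730333-120749853, minus strand), was at 12.8, 24.1, 14.0 and 12 CPM after PBS and at 5.87, 6.75, 15.9 and 8.88 CPM after CGRP at 4 h. The difference was -0.76 ± 0.31 (adjusted p = 0.1), and -1.13 ± 0.30 (adjusted p = 0.0129) without replicate 3. Oasl2, a related gene, gave -0.51 (adjusted p = 0.169) and, without replicate 3, -0.79 (adjusted p = 0.00902). Ifit2 gave -0.23 (adjusted p = 0.444) and, without replicate 3, -0.50 (adjusted p = 0.0204). Ifit1 and Eif2ak2, the latter the kinase PKR that halts translation, gave -0.25 (adjusted p = 0.718) and -0.33 (adjusted p = 0.214). For Oas1a, 72.5% of its 25-base words recur in other genes, so its level is uncertain.

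Of the 6 tested genes of the Mx, viperin and membrane restriction group, 2 fell at 4 h. Ifitm2, which blocks the fusion of viruses with membranes (7:140954837-140955987, minus strand), was at 353, 405, 339 and 374 CPM after PBS and at 264, 301, 317 and 306 CPM after CGRP, with no overlap. It fell by 0.31 ± 0.08 (adjusted p = 0.0066, exact permutation p = 0.0286), a call that held when any 1 library was left out. At 8 h it was at 364, 370.5, 369 and 362 CPM after PBS and at 318, 306, 343 and 323 CPM after CGRP, also without overlap, and the log2 difference of -0.18 ± 0.08 did not pass (adjusted p = 0.141). Of its 25-base words 60.2% recur elsewhere, and the copy with the largest share, Gm45717, had 0 reads.

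Bst2, or tetherin, which holds budding virus on the cell surface (8:71534255-71537456, minus strand), was at 52.4, 71.5, 55.1 and 59.1 CPM after PBS and at 47.8, 48.5, 47.0 and 49.2 CPM after CGRP at 4 h. The CGRP libraries were close together and all below the PBS libraries. It fell by 0.31 ± 0.11 (adjusted p = 0.0477, exact permutation p = 0.0286). The call lay at the threshold: leaving out 1 library kept it only without PBS 4 h replicate 1, and lost it in the other 15 cases, with adjusted p up to 0.219. Ifitm3, the most abundant member, differed by -0.21 (adjusted p = 0.132) at 4 h. Mx1, Mx2 (annotated as a polymorphic pseudogene) and Rsad2 gave -0.29, -0.18 and 0.24, with adjusted p of 0.898, 0.692 and 0.893. Without CGRP 4 h replicate 3 Mx1 gave -2.24 (adjusted p = 0.153), and Rsad2 changed side to -1.53 (adjusted p = 0.103), and neither passed. In the ISG15 system, the ubiquitin-like modifier Isg15 gave -0.34 (adjusted p = 0.599) and Usp18, the protease that removes it, -0.12 (adjusted p = 0.685).

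The interferon-inducible GTPases, a family some of whose members attack the vacuoles of intracellular pathogens, were mostly on the lower side at 4 h. Of 6 tested, 5 were below 0, with a median of -0.41, and 1 fell. Igtp, an immunity-related GTPase also called IRGM3 (11:58199556-58207591, plus strand), was at 28.8, 25.1, 32.9 and 31.4 CPM after PBS and at 19.8, 20.3, 24.2 and 21.2 CPM after CGRP, with no overlap. It fell by 0.47 ± 0.16 (adjusted p = 0.0451, exact permutation p = 0.0286). This call was lost in 12 of 16 cases when 1 library was left out, with adjusted p up to 0.128, and kept without CGRP 4 h replicate 3, CGRP 8 h replicate 4, PBS 4 h replicate 2 or PBS 8 h replicate 1. At 8 h Igtp was at 18.1, 22.2, 25.7 and 26.9 CPM after PBS and at 25, 25.3, 23.6 and 15.4 CPM after CGRP, and the difference was -0.05 (adjusted p = 0.902). Gbp3, Irgm1, Gbp7 and Iigp1 gave -0.45, -0.34, -0.36 and -0.52 at 4 h, with adjusted p of 0.0925, 0.0869, 0.142 and 0.255. Without CGRP 4 h replicate 3 they gave -0.58, -0.44, -0.54 and -0.94 and passed, with adjusted p of 0.032, 0.029, 0.0196 and 0.00903. Gbp2, the remaining GTPase, lay on the other side at 0.18 (adjusted p = 0.313).

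The chemokines that draw activated T cells, Cxcl9 and Cxcl10, had few reads. Cxcl9 had 27, 20, 11 and 42 reads after PBS at 4 h and 1, 3, 24 and 2 after CGRP. At 8 h it had 18, 19, 9 and 23 reads after PBS and 1, 7, 7 and 3 after CGRP, with no overlap in CPM. Its log2 differences of -1.66 (adjusted p = 0.103) and -2.19 (adjusted p = 0.0652) did not pass, and the former was -3.53 ± 0.69 (adjusted p = 0.00133) without CGRP 4 h replicate 3. Cxcl10 was at 1.99, 1.25, 0.772 and 0.83 CPM after PBS at 4 h and at 0.405, 0.362, 11 and 5.17 CPM after CGRP. Its groups were spread widely, with a difference of 1.80 (adjusted p = 0.215).

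Of the 6 remaining genes, 2 fell at 4 h. Xaf1, a pro-apoptotic partner of the inhibitor XIAP (11:72301629-72313733, plus strand), was at 33.4, 43.9, 36.3 and 37.1 CPM after PBS and at 19.8, 23.1, 38.7 and 23.3 CPM after CGRP. Replicate 3 alone lay inside the PBS range. It fell by 0.52 ± 0.17 (adjusted p = 0.0374, exact permutation p = 0.114), and without replicate 3 by 0.76 ± 0.15 (adjusted p = 0.00147). The call was lost without CGRP 4 h replicate 1, 2 or 4 or PBS 4 h replicate 2, 3 or 4, with adjusted p up to 0.146. At 8 h its libraries were at 23.7, 29.2, 25.3 and 30.7 CPM after PBS and at 31.1, 29.1, 29.6 and 21.6 CPM after CGRP, a difference of 0.04 (adjusted p = 0.929).

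Parp14, a mono-ADP-ribosyltransferase (16:35832874-35871544, minus strand), was at 28.1, 32.2, 30.1 and 30.1 CPM after PBS and at 23.6, 22.7, 25.7 and 19.0 CPM after CGRP at 4 h, with no overlap. At 8 h it was at 32.1, 21, 29.4 and 26.4 CPM after PBS and at 19.3, 19.0, 20.6 and 21.3 CPM after CGRP, where PBS replicate 2 lay inside the CGRP range. It fell at both times, by 0.41 ± 0.13 (adjusted p = 0.0412, exact permutation p = 0.0286) and by 0.44 ± 0.14 (adjusted p = 0.0447, exact permutation p = 0.0571). Both calls were close to the threshold. The 4 h call was kept only without CGRP 4 h replicate 3, PBS 8 h replicate 1 or PBS 8 h replicate 2, and the 8 h call only without CGRP 4 h replicate 3 or 4 or PBS 8 h replicate 2. Each was lost in the other 13 of 16 cases, with adjusted p up to 0.157 and 0.177. Ifi35, Parp9 and Rtp4 gave 0.06, 0.13 and -0.38, with adjusted p of 0.767, 0.536 and 0.359.

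Leaving out CGRP 4 h replicate 3 raised the count of members that fell at 4 h from 7 to 18 of 45, with none higher. Among all 14232 genes tested in that fit, 15.6% were called, 7.59% lower. The median of the members moved from -0.25 to -0.34 (0.003 for all genes in that fit), and 35 of the 45 lay below 0. The calls shared by both fits were 6: Ifngr1, Ifit3, Ifitm2, Igtp, Parp14 and Xaf1. A further 12 were called only without the library: Irf7, Ddx58, Ifit2, Oas2, Oasl2, Gbp3, Gbp7, Iigp1, Irgm1, Cxcl9, Rtp4 and Ifi44, and for Ifi44 the 3 remaining CGRP libraries held 0 reads. Bst2 was called only with all libraries, at -0.28 (adjusted p = 0.108) without replicate 3. The comparison of the 2 fits was made after the library was seen to stand apart in these genes, so the second count is a description of what that library does and no separate evidence.

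**Figure D3:**
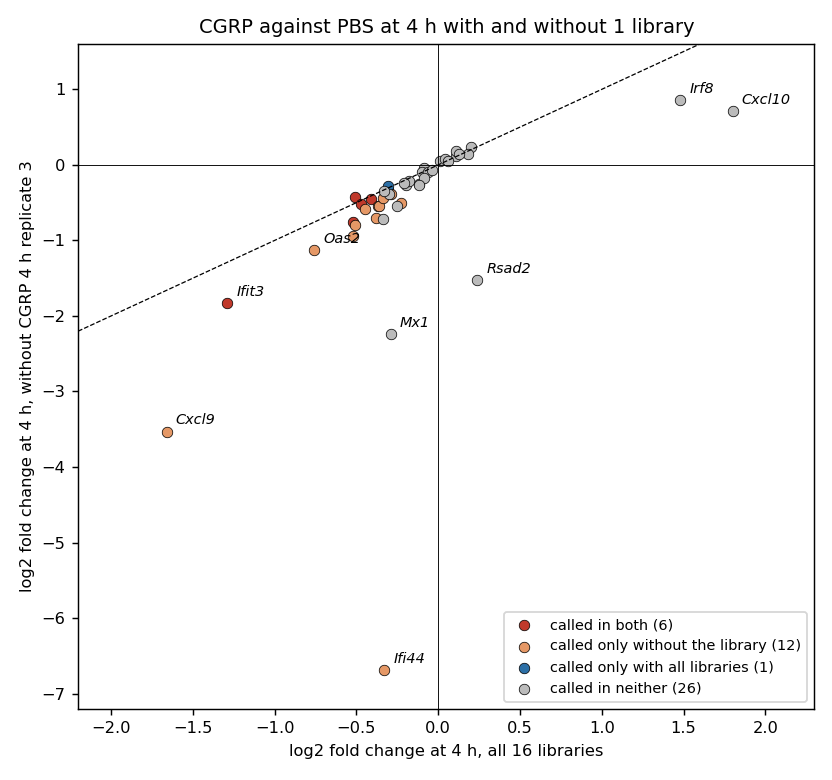
Log2 fold change of CGRP over PBS at 4 h for each of the 45 genes, fitted with all 16 libraries (horizontal axis) and without CGRP 4 h replicate 3 (vertical axis), coloured by the fit in which the gene was called, with a dashed line where both values are equal. The 12 genes called only without the library and the 6 called in both all have negative values on both axes, and Rsad2 lies at 0.24 on the horizontal and -1.53 on the vertical axis.

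The calls were set beside the promoter sequences. Of the 15 tested members with an ISRE core in the window, 4 fell at 4 h (Ifit3, Bst2, Ifitm2 and Igtp), 11 lay below 0, and the median was -0.31, where 8.39% of all tested genes fell. Of the 21 without a core, 2 fell (Ifngr1 and Xaf1), 15 lay below 0, and the median was -0.21. Among the 9 with no entry, Parp14 fell. At 8 h no gene with a core was called, with a median of -0.10, while those without a core gave 1 lower and 1 higher, Ifngr1 and Ifngr2, with a median of -0.06. Of all tested genes 3.66% fell and 5.0% rose at 8 h.

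At 8 h CGRP gave 3 calls among the 45 genes, Ifngr1 and Parp14 lower and Ifngr2 higher. The mesenchymal, myogenic and endothelial marker sums given above were also lower in this comparison, and their part was not tested. That count is 6.67% of the members, against 8.67% of all tested genes, with 4.44% lower against 3.66%, and 5.0% of all genes higher. Log2 fold changes lay below 0 for 30 of 45 (66.7%, against 52.4% of all genes), with a median of -0.07 (against -0.018). At an unadjusted p under 0.05 there were 7, 6 of them lower, again without the share of all genes at that cut. The groups did not overlap for 4 genes, all lower after CGRP, namely Ifngr1, Ifitm2, Ifit2 and Cxcl9. That is 8.89%, against 6.75% of all genes, while 8.08% of all genes were wholly higher. Ifit2 differed by -0.42 (adjusted p = 0.166).

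Whether the effect of CGRP changed between 4 h and 8 h was tested directly. None of the 45 genes was called in that test, against 1.12% of all genes (0.695% higher and 0.423% lower). With edgeR 3 had an unadjusted p under 0.05, a count without the share of all genes at that cut. DESeq2 called 0 and limma-voom called 1, Ifit3. Without CGRP 4 h replicate 3 edgeR called Ifit3 as well, with a difference of 1.72 (adjusted p = 0.000238). The median of the difference over the members was 0.13, against -0.003 over all genes. The 2 comparisons share no library. In the order 4 h and 8 h, Ifngr1 gave -0.51 and -0.43, Parp14 -0.41 and -0.44, Ifngr2 0.20 and 0.32, Ifit3 -1.29 and -0.12, and Xaf1 -0.52 and 0.04.

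**Figure D4:**
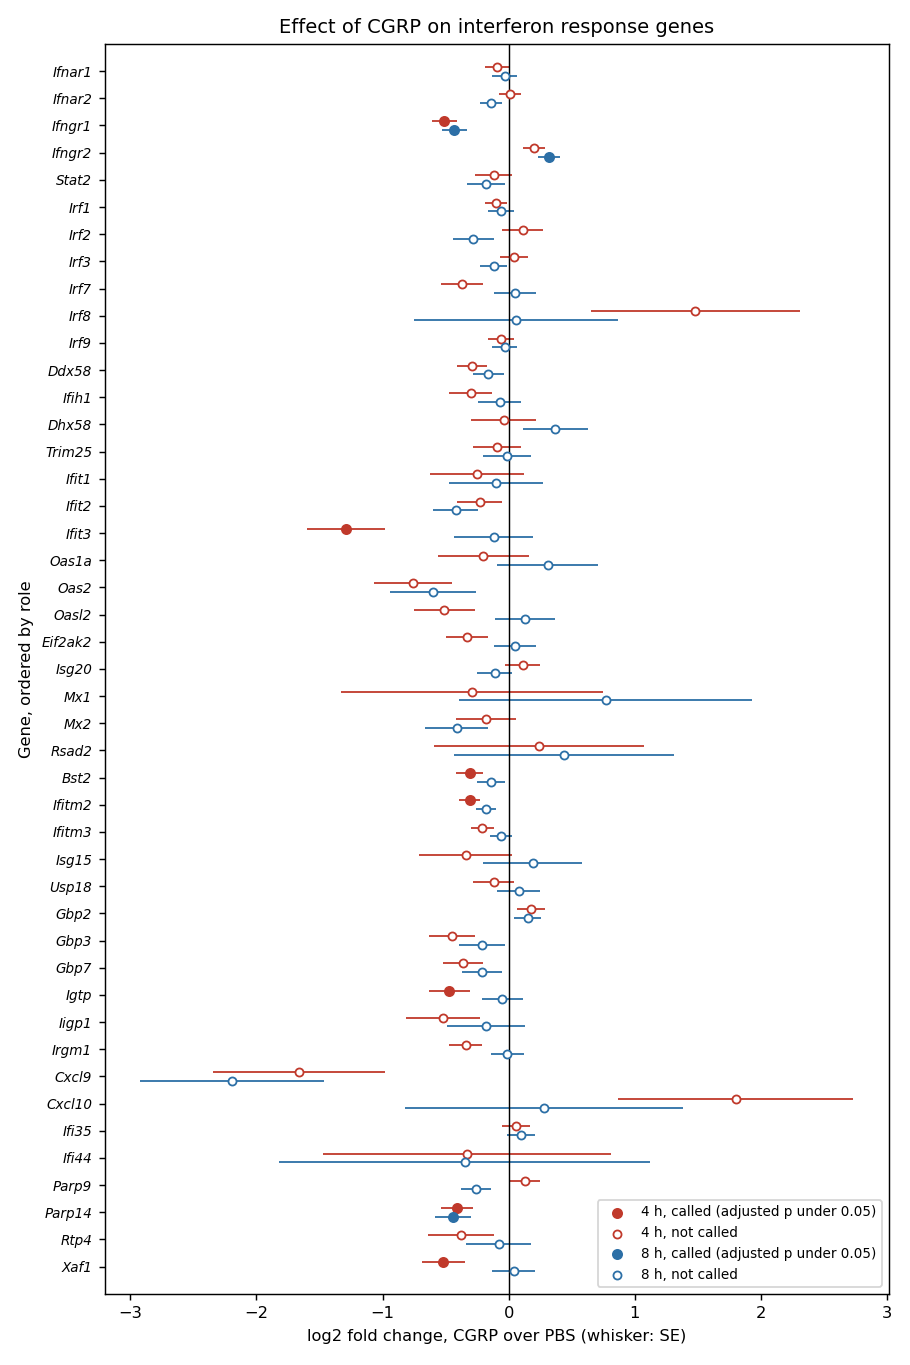
Log2 fold change of CGRP over PBS for each of the 45 genes (rows, ordered by role) at 4 h and at 8 h, with whiskers for the SE, filled markers for genes called at an adjusted p under 0.05 and open markers for the rest. Ifit3 lies at -1.29 at 4 h and at -0.12 at 8 h, while Ifngr1 and Parp14 have filled markers below 0 at both times.

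Most of the genes lay lower at the later time without CGRP. From 4 h to 8 h after PBS, 41 of 45 log2 differences lay below 0 (91.1%, against 50.7% of all genes), with a median of -0.24 (against -0.005). All 15 with an unadjusted p under 0.05 were lower, and the share of all genes at that cut is not given. Only Bst2 fell by the adjusted test, which is 2.22% of the members against 0.516% of all genes (0.251% lower and 0.265% higher). The 8 h libraries lay below the 4 h libraries without overlap for 9 genes: Irf7, Ifit3, Oas2, Isg20, Bst2, Ifitm3, Usp18, Iigp1 and Xaf1. That is 20% of the members, against 4.22% of all genes. No gene was wholly higher at 8 h, against 3.30%. The PBS 4 h libraries enter both this comparison and that of CGRP at 4 h, and nothing is read from the likeness of the 2. The labels do not say whether the times were collected on separate days.

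Bst2 was at 36.4, 43.9, 41.9 and 37.8 CPM after PBS at 8 h, below each of the PBS 4 h values given above. It fell with time after PBS by 0.58 ± 0.11 (adjusted p = 0.0154). That call was lost without PBS 4 h replicate 2 (adjusted p = 0.057), PBS 8 h replicate 1 (0.0704) or PBS 8 h replicate 4 (0.0552). At 8 h after CGRP it was at 37.4, 32.9, 38.1 and 36.3 CPM, and it fell with time after CGRP by 0.41 ± 0.11 (adjusted p = 0.0203), which was lost without CGRP 4 h replicate 4 (adjusted p = 0.0551) or CGRP 8 h replicate 2 (0.0788). Oas2 was at 4.57, 6.71, 8.03 and 5.36 CPM after PBS at 8 h and at 3.83, 2.26, 6.12 and 3.96 CPM after CGRP at 8 h. Its difference with time after PBS was -1.36 ± 0.32, just outside the threshold (adjusted p = 0.0594), and it fell with time after CGRP by 1.20 ± 0.33 (adjusted p = 0.0312). The latter call was lost without CGRP 4 h replicate 3 (-0.82, adjusted p = 0.13) or 4 (adjusted p = 0.0583), or CGRP 8 h replicate 1 (0.0713), 2 (0.106) or 4 (0.0616).

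After CGRP 3 genes fell from 4 h to 8 h (6.67%, against 7.26% of all genes, 3.05% lower and 4.21% higher), the third being Isg20, an exonuclease that degrades RNA (7:78913424-78920396, plus strand). It was at 29.6, 24.0, 21.4 and 24.1 CPM at 4 h and at 17.8, 14.3, 18.5 and 17.4 CPM at 8 h after CGRP, without overlap. It fell by 0.55 ± 0.14 (adjusted p = 0.0199, exact permutation p = 0.0286), a call lost without CGRP 4 h replicate 1 (adjusted p = 0.0906) or CGRP 8 h replicate 2 (adjusted p = 0.0831). After PBS it was at 24.9, 22.3, 24.1 and 20.9 CPM at 4 h and at 18.3, 19.4, 20.6 and 15.1 CPM at 8 h, also without overlap, and that difference of -0.33 was not called (adjusted p = 0.327). In all 34 of 45 differences lay below 0 after CGRP (75.6%, against 51.7% of all genes), with a median of -0.18 (against -0.011). Without overlap, 5 genes were lower at 8 h (11.1%, against 5.74% of all genes), with none wholly higher, against 6.66%. In the same libraries the pericyte marker sum was 29.8 to 63.4 CPM at 4 h and 94.7 to 129 CPM at 8 h, and its part in the result was not tested.

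The rest of the pathway was read from 4 further lists. The counts stand beside 8.39% of all tested genes lower and 7.84% higher at 4 h, and 3.66% lower and 5.0% higher at 8 h. Of the 12 interferon genes in the table none was tested: 7 had 0 reads in every library, and the 12 together had 8 reads in all 16 libraries. Among 15 tested kinases, adaptors and brakes of interferon signalling, 3 rose and none fell at 4 h. Stat3, the transcription factor of the interleukin-6 family, rose by 0.62 ± 0.10 (adjusted p = 0.000174), from 180.3 ± 17.6 to 278 ± 28.8 CPM (SD, n = 4). Socs3 and Socs1, feedback inhibitors of JAK kinases, rose by 1.07 ± 0.17 (adjusted p = 0.000356) and by 1.14 ± 0.31 (adjusted p = 0.0149). Their levels went from 94.5 ± 19.6 to 198 ± 41.2 CPM and from 7.35 ± 3.88 to 16.3 ± 3.75 CPM. At 8 h Socs3 rose by 0.59 ± 0.17 (adjusted p = 0.0402) and no other gene of that list was called. The effect on Stat3 was lower at 8 h than at 4 h by a log2 difference of -0.72 ± 0.14 (adjusted p = 0.0106).

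Among 13 tested genes of nucleic acid sensing 1 was called, Samhd1, an enzyme that depletes nucleotides, which rose by 0.79 ± 0.10 (adjusted p = 2.54e-05) at 4 h and by 0.35 ± 0.11 (adjusted p = 0.0437) at 8 h. Among 51 other interferon-stimulated genes tested, 12 fell and 2 rose at 4 h, with a median of -0.28, and 2 fell and 2 rose at 8 h, with a median of -0.15. Sp100, a protein of nuclear bodies, fell by 0.74 ± 0.12 (adjusted p = 0.000195) and Ifi30, a lysosomal thiol reductase, by 0.72 ± 0.13 (adjusted p = 0.000601) at 4 h. Ifi204, of the DNA-binding p200 family, rose by 0.68 ± 0.11 (adjusted p = 0.000183) at 4 h, and its effect at 8 h was lower than at 4 h by a log2 difference of -1.01 ± 0.15 (adjusted p = 0.0014). Ifi203, of the same family, fell by 1.01 ± 0.17 (adjusted p = 0.000755) at 8 h. Ifi27, a small mitochondrial membrane protein, rose by 0.32 ± 0.08 (adjusted p = 0.0187) at 8 h, and its effect was higher at 8 h than at 4 h by 0.51 ± 0.12 (adjusted p = 0.0306). Shisa5 rose by 0.29 ± 0.08 (adjusted p = 0.0245) at 8 h.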

How the data were processed

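Expression was measured by RNA-seq in 16 libraries, 4 per group, grouped by their titles and descriptions. The authors deposited unnormalized counts of reads for each gene. Alignment was with STAR 2.5.4 and counting with featureCounts on mm10, per the submitters' processing notes. Not given in the sources used here are the gene annotation, the strandedness option and how reads with several matches were handled. Counts were whole numbers and all 16 columns were used.

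Genes passing filterByExpr (13949 of 52997) were scaled by TMM and fitted with edgeR 4.0.16 (R 4.3.3), by the quasi-likelihood test with 1 mean per group over all libraries (12 residual degrees of freedom, common biological coefficient of variation 17.4%). Tests were two-sided, and Benjamini-Hochberg adjustment ran over all genes tested within each comparison, with calls at 0.05. Log2 fold changes carry an SE computed as the size of the change over the square root of the F value of its test. This SE is approximate, above all for genes with few reads. CPM means carry their SD. Exact permutation tests used log2 CPM with a prior count of 0.5. The fit was tested on simulated data. Alternatives used DESeq2 1.42.0, limma 3.58.1, other scalings and filters, a replicate block, and each library left out in turn. Positions come from GENCODE release 21 (mouse M21, GRCm38) and promoters from RefSeq (GRCm38.p6).

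The members and gene lists were chosen with earlier results of these data known. By the naming rule, receptor chains, members called in any comparison and the 3 members with the smallest p at 4 h and at 8 h are given per library, and every other member by name or count. Library values of other members were chosen after they were seen. The leave-out of the libraries with most genes detected was added after the data were seen. Genes named from the other lists are up to 3 called genes with the smallest p per list and CGRP comparison. No 2 replicates held the same counts.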

Additional observations from a re-analysis of the deposited data

Results flagged for a closer look

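Within each group of 4 libraries, the highest or lowest value of a gene was compared with the other 3, and 12 of 180 pairs of gene and group held a library whose gap to the next took up a larger part of the whole range than Dixon's critical value allows. Chance flags about 1 in 20 such groups if the values are normally distributed, which was not tested. The share of all tested genes flagged is not given here, so the count is not read as an excess. CGRP 4 h replicate 3 and PBS 4 h replicate 2 were described above as high in these genes, so their flags are no separate evidence. In CGRP 4 h replicate 3 there were 5, all high: Cxcl9 at 3.01 CPM (others 0.101 to 0.362), Ifi44 at 5.01 CPM (others at 0), Ifit2 at 53.7 CPM (27.4 to 29.2), Irf9 at 86.7 CPM (73.8 to 75.7) and Mx1 at 7.26 CPM (0.202 to 1.21). In PBS 4 h replicate 2 there were 3, also high: Gbp7 at 53.5 CPM (39.9 to 41.4), Ifitm3 at 1241 CPM (1034 to 1065) and Oas2 at 24.1 CPM (12 to 14.0). After PBS at 8 h, Gbp3 stood high at 40.6 CPM in replicate 4 (28.8 to 29.1), Ifit2 high at 56.5 CPM in replicate 3 (43.6 to 44.9) and Ifit3 low at 41.7 CPM in replicate 2 (51.8 to 52.6). After CGRP at 8 h, Ifit1 stood high at 52.9 CPM in replicate 4 (30.4 to 31.3).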

How the results depend on the processing

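Ifngr1 and Ifitm2 at 4 h were called in all 25 alternatives. Ifit3 was called in 24 of 25, the exception being the fit on the libraries of the groups compared alone (adjusted p = 0.0879), and no called member reversed. The 7 calls at 4 h became 3 with only those libraries, 16 without the 4 libraries with most genes detected (an alternative chosen after the data were seen), 10 with limma-voom, and 3 to 18 with 1 library left out. The 3 calls at 8 h became 0 without the 4 libraries and 0 to 4 with 1 left out. For the difference between the times, 0 became 1 with limma-voom, 1 without the 4 libraries and 0 to 1 with 1 left out; the fit on the groups compared gives no separate value there. For time after PBS, 1 became 4 with DESeq2, 6 with no filter, 5 with only those libraries, 0 without the 4 libraries and 0 to 3 with 1 left out. For time after CGRP, 3 became 0 to 3 with 1 left out. Apart from the fit without CGRP 4 h replicate 3, the share of all genes called in each alternative is not given here. The counts above, and those with a replicate block below, therefore do not measure the members alone. The cause was not tested.

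With the replicate number as a block the counts were 6 at 4 h and 2 at 8 h, 0 for their difference, and 2 after PBS and 3 after CGRP between the times. Whether the numbers pair the libraries cannot be told from these values. Of 24 same-numbered pairs none correlated above 0.1 (-0.079 to 0.0919). However, 0.0919 was also the highest over all pairs, so that cut cannot set them apart. The own number was the best match in 18 of 48 cases, each with 4 candidates.

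Small uncalled differences changed sign with 1 library left out. At 4 h Ifnar1 then ran from -0.14 to 0.013 and Ifnar2 from -0.0078 to 0.054, and at 8 h Ifnar1 ran from -0.083 to 0.03, Igtp from -0.14 to 0.093 and Xaf1 from -0.015 to 0.15. Ifnar1 at 8 h was 0.036 without the 4 libraries, and Ifnar2 at 4 h was -0.031 with upper-quartile scaling. Genes with few reads, such as Ifi44, Irf8 and the chemokines, have wide errors at this depth.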
